A study of Nicotiana benthamiana with 9 samples.

Results

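Leaves that expressed the RNA editing factor dPPRe-rpl2 from the binary vector pMDC32 were set against leaves that expressed it from pGWB2, across every counted gene. The comparison covers 6 of the 9 libraries of the series, 3 with pMDC32 and 3 with pGWB2, and all 106 rows of the count table, of which 105 are plastid genes and 1 is the editor transgene, listed as dPPRrpl2. Libraries were assigned by their labels and column names, and the 3 libraries with P19 alone stayed out of the fit. Both groups are wild-type Nicotiana benthamiana leaves in which the editor was expressed transiently together with P19, a viral protein that suppresses RNA silencing. By the series text all are biological replicates taken 3 days post infiltration (dpi), whereas the labels give 2 dpi for replicate 1 and 3 dpi for replicates 2 and 3 of either vector. The labels of the pGWB2 libraries spell the vector PWB2. They do not give the promoters, but as background both vectors drive a cloned gene from the cauliflower mosaic virus promoter, and pMDC32 carries that promoter in a duplicated form.

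Pentatricopeptide repeat (PPR) proteins are RNA-binding proteins that plants send to plastids and mitochondria, where they guide RNA editing, protect transcript ends, and take part in splicing and translation. A designed PPR editing factor is encoded in the nucleus or, as here, on an infiltrated vector, is made in the cytosol and acts on an organelle transcript; this one is named for rpl2, which encodes a protein of the large plastid ribosomal subunit. Most plastid genes lie in clusters that are transcribed together and then cut into shorter RNAs. Where neighbouring genes share a transcript, the ratio of their reads can reflect how that transcript is processed or stabilised. Whether the neighbours compared here share a transcript was not tested, so their ratios are given as a description.

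The libraries held 32457135 to 44392760 counted reads. As in green leaf, psbA, for the D1 protein of photosystem II, and rbcL, for the large subunit of Rubisco, ranked 1 and 2 of the 106 rows in CPM per kilobase of row with either vector (CPM are counts set to the same total in each library), while psaA and psaB of photosystem I ranked 36 and 33 with pMDC32 and 37 and 34 with pGWB2. The table has no row for a nuclear, mitochondrial or bacterial gene. The sequencing lane in the column names was 8, 8 and 5 for pMDC32 replicates 1 to 3 and 4 for every pGWB2 library. No lane holds both vectors, so vector and lane cannot be told apart in any result.

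The editor transcript was counted in every library and stood higher with pMDC32 at each replicate number, as did 7 of the 105 plastid rows. The transgene row (2834 nt) had 2680, 9881 and 6681 CPM in pMDC32 replicates 1 to 3, against 1265, 4421 and 4554 CPM in pGWB2 replicates 1 to 3 (here scaled by edgeR's TMM factors). Replicate 1, labelled 2 dpi, was the lowest library of each vector, and the pMDC32 value of replicate 1 lies among the pGWB2 values, so the groups overlap. The means were 6414 ± 3608 CPM with pMDC32 and 3413 ± 1862 CPM with pGWB2 (SD, n = 3 each). The libraries of one vector differed by up to 3.69 times with pMDC32 and 3.60 times with pGWB2, more than the vectors differed from each other.

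The log2 fold change of the transgene was 0.91 (SE 0.43, interval at 95% from -0.017 to 1.84, Benjamini-Hochberg adjusted p = 0.995 in edgeR's quasi-likelihood fit), which did not pass the threshold of 0.05. An exact permutation test of the log2 values (two-sided, n = 3 each) gave p = 0.4, where 0.1 is the smallest p possible. Within a labelled day there are too few libraries to judge overlap, with a single library of each vector at 2 dpi. At 3 dpi the pMDC32 libraries lay above the pGWB2 libraries, which is given as a description. At 2 dpi the single pMDC32 library held 2.12 times the single pGWB2 library, and at 3 dpi the mean was 8281 CPM with pMDC32 and 4487 CPM with pGWB2, a ratio of 1.85. With the labelled day as covariate the log2 fold change was 0.95 (SE 0.13, 95% interval 0.70 to 1.20, edgeR adjusted p = 7.5e-11), and the transgene passed. That fit shared 1 estimate of the spread across all rows (318 degrees of freedom). Between the days the vector effect differed by 0.20 on the log2 scale, 2 dpi minus 3 dpi (edgeR interaction term, adjusted p = 0.993). In whole leaf RNA, fewer expressing cells and less transcript per cell cannot be told apart.

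**Figure D1:**
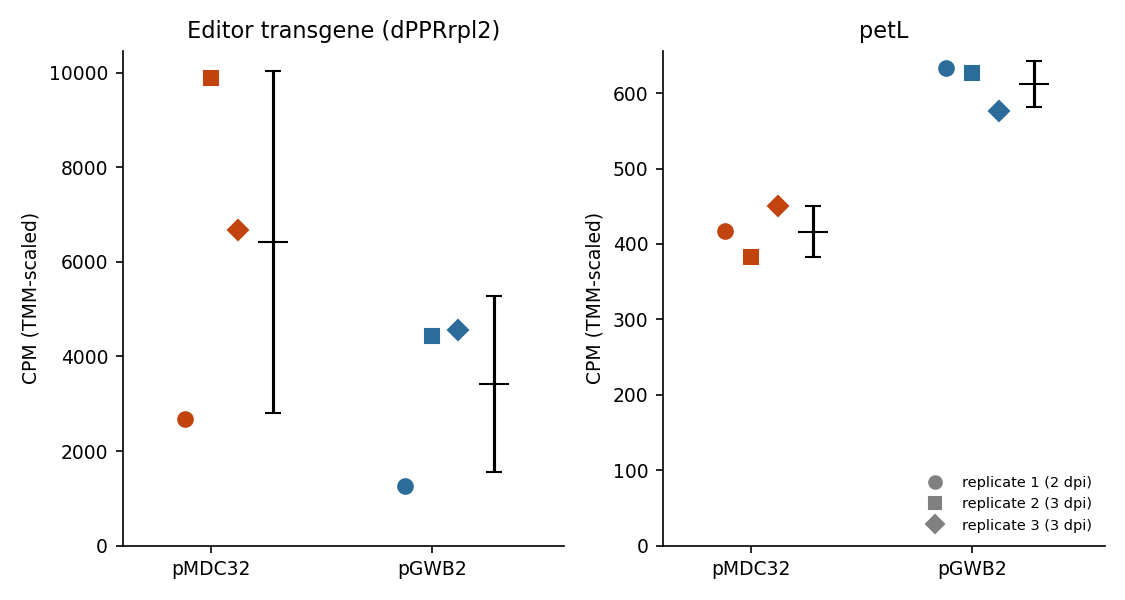
Levels of the editor transgene and of petL in each library, in TMM-scaled CPM from 0, with pMDC32 left of pGWB2; symbols mark the replicate number and labelled day, and the bars at the right of each group are the mean and SD of 3 libraries. The transgene values of the 2 vectors overlap, from 2680 to 9881 CPM with pMDC32 and from 1265 to 4554 CPM with pGWB2, whereas the petL values do not.

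Per length, the transgene reached the range of moderately expressed plastid genes. Its mean was 2343 CPM per kilobase with pMDC32 and 1186 with pGWB2, so that 46 plastid rows stood above it with pMDC32 and 67 with pGWB2. The transgene took 0.126% to 1.06% of all counts. Plastid genes stood in much the same order: across the 105 plastid rows the levels per kilobase of the 2 vectors had a Spearman rho of 0.998, which is across genes, which are not independent replicates, and is given as a description.

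**Figure D2:**
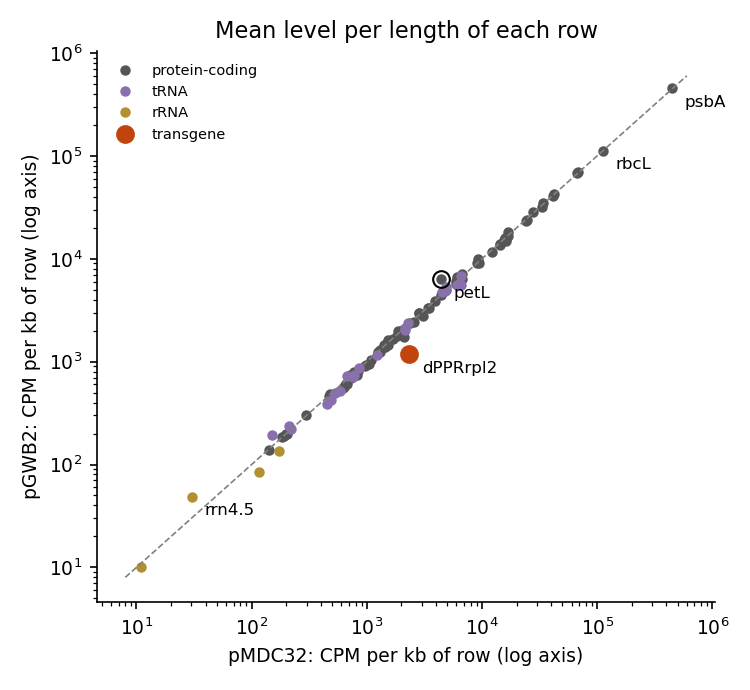
Mean CPM per kilobase of each of the 106 rows with pMDC32 (horizontal, log axis) and pGWB2 (vertical, log axis), coloured by RNA class, with equal levels on the dashed line. The transgene lies to the right of the line, at 2343 with pMDC32 and 1186 with pGWB2, and petL (ringed) to the left of it, at 4393 and 6290.

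Among plastid genes, petL was lower with pMDC32 and no other gene passed. petL encodes a small membrane subunit of the cytochrome b6f complex, which carries electrons between photosystem II and photosystem I. Its row runs from 68008 to 68103 on the plus strand (96 nt) of the plastid sequence, whose build no source used here names, and it overlaps no other row. petL had 417, 382 and 450 CPM in pMDC32 replicates 1 to 3, against 633, 627 and 577 CPM in pGWB2 replicates 1 to 3. Every pMDC32 library lies below every pGWB2 library, and the libraries of one vector differed by at most 1.18 times with pMDC32 and 1.10 times with pGWB2. The means were 416 ± 33.7 CPM with pMDC32 and 612 ± 30.9 CPM with pGWB2 (SD, n = 3 each), at read counts of 13927 to 16531 and 24443 to 26569 per library.

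The log2 fold change of petL was -0.56 (SE 0.12, 95% interval -0.81 to -0.31, edgeR adjusted p = 0.0331), or 0.68 times the pGWB2 level. The exact permutation test gave p = 0.1 (two-sided, n = 3 each), the smallest possible. At 2 dpi the ratio of pMDC32 to pGWB2 was 0.658 and at 3 dpi it was 0.691. Of the 105 plastid rows 1 (0.952%) was called in either direction, by an adjusted p under 0.05.

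The size of the petL difference was steady, and its call was not. Over 13 alternative settings the log2 fold change ran from -0.58 to -0.51, and petL passed in 6 of them, DESeq2 and limma-voom included, with adjusted p from 0.00046 to 0.998. It did not pass with other scalings of the libraries, without the psbA or the rps12 row, in the 3 dpi libraries alone or with all 9 libraries in the fit. Leaving out any library other than pGWB2 replicate 3 ended the call, with log2 fold changes of -0.60 to -0.43 and adjusted p of 0.0287 to 0.693 over the 6 libraries left out in turn.

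None of the other subunits of the cytochrome b6f complex passed. Of the 6 measured genes 1 fell (petL), 3 in all had a log2 fold change below 0, and the median was -0.015, which equals that of all plastid rows at this precision (-0.015). petG, for another small subunit, stood at 643, 629 and 757 CPM with pMDC32 and 795, 820 and 679 CPM with pGWB2, with a log2 fold change of -0.18 (SE 0.12). The groups of petG overlap. As a share of the reads of all 6 genes, petL took 1.75%, 1.88% and 1.91% in pMDC32 replicates 1 to 3, against 2.73%, 2.66% and 2.72% in pGWB2 replicates 1 to 3, and these shares do not overlap.

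Along the plus strand petL is followed by petG, psaJ for a small subunit of photosystem I, and rpl33 and rps18 for ribosomal proteins. The estimated difference between vectors was smaller at petG than at petL and near 0 from psaJ on. The log2 fold changes were -0.001 for psaJ (SE 0.14), 0.036 for rpl33 (SE 0.11) and 0.098 for rps18 (SE 0.12), and none of them passed. The sign of psaJ turned with most other settings.

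Set against these neighbours within each library, petL was lower with pMDC32 in all 3 libraries. Reads of petL per read of petG were 0.648, 0.608 and 0.594 in pMDC32 replicates 1 to 3, against 0.797, 0.765 and 0.850 in pGWB2 replicates 1 to 3. Reads of petL per read of rps18 were 0.484, 0.420 and 0.457 with pMDC32 and 0.807, 0.752 and 0.603 with pGWB2. The groups overlap in neither ratio, nor in the ratios of petL to psaJ (at most 0.130 with pMDC32, at least 0.176 with pGWB2) and to rpl33 (at most 0.903 with pMDC32, at least 1.07 with pGWB2). A ratio within a library does not depend on how libraries are scaled, but these 4 ratios share the petL counts and are a single observation.

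**Figure D3:**
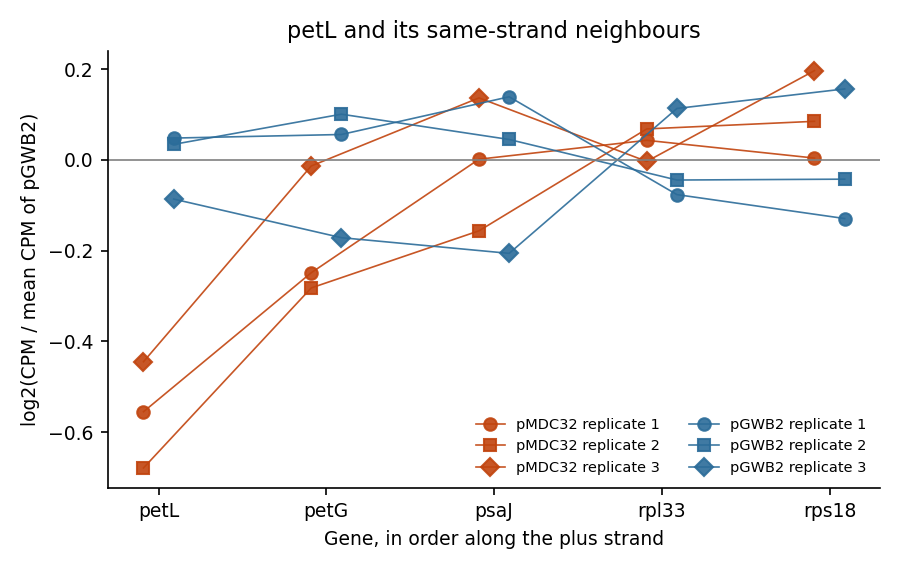
CPM of petL, petG, psaJ, rpl33 and rps18 in each library as log2 of its ratio to the mean of the 3 pGWB2 libraries, in gene order along the plus strand; lines join the genes of a library. At petL the pMDC32 libraries lie below all pGWB2 libraries, and from psaJ on the 2 vectors are mixed.

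Ratios of neighbouring genes were then compared over the whole plastid sequence. Rows that follow each other on a strand, at most 1000 nt apart and not overlapping, made 62 pairs of 86 genes, 22 on the plus strand and 40 on the minus strand. By limma over all pairs with Benjamini-Hochberg adjustment 0 pairs (0%) passed, and 3 had an unadjusted p under 0.05. The petL to petG ratio came closest, at -0.38 on the log2 scale for pMDC32 minus pGWB2 (SE 0.062, 95% interval -0.54 to -0.23, adjusted p = 0.0642). With protein-coding pairs alone it passed (adjusted p = 0.0214), as it did with all 9 libraries in the fit (adjusted p = 0.0228). The other 2 were petG to psaJ, at -0.18 (SE 0.062), and trnfM to rps14, the initiator tRNA against a small ribosomal subunit gene, at -0.34 (SE 0.13).

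In 4 pairs (6.45%) the groups did not overlap, each with the lower ratios in pMDC32. Besides petL to petG these were petG to psaJ, trnfM to rps14, and ndhI to ndhA of the NDH complex at -0.081 (SE 0.047). Pairs share genes, so their counts are a description. Over all pairs the median size of the difference was 0.045 on the log2 scale, and for 53 of the 62 pairs the interval stayed within 1.5-fold. The ratio of rpl23 to rpl2, the gene the editor is named for, differed by -0.077 (SE 0.11).

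**Figure D4:**
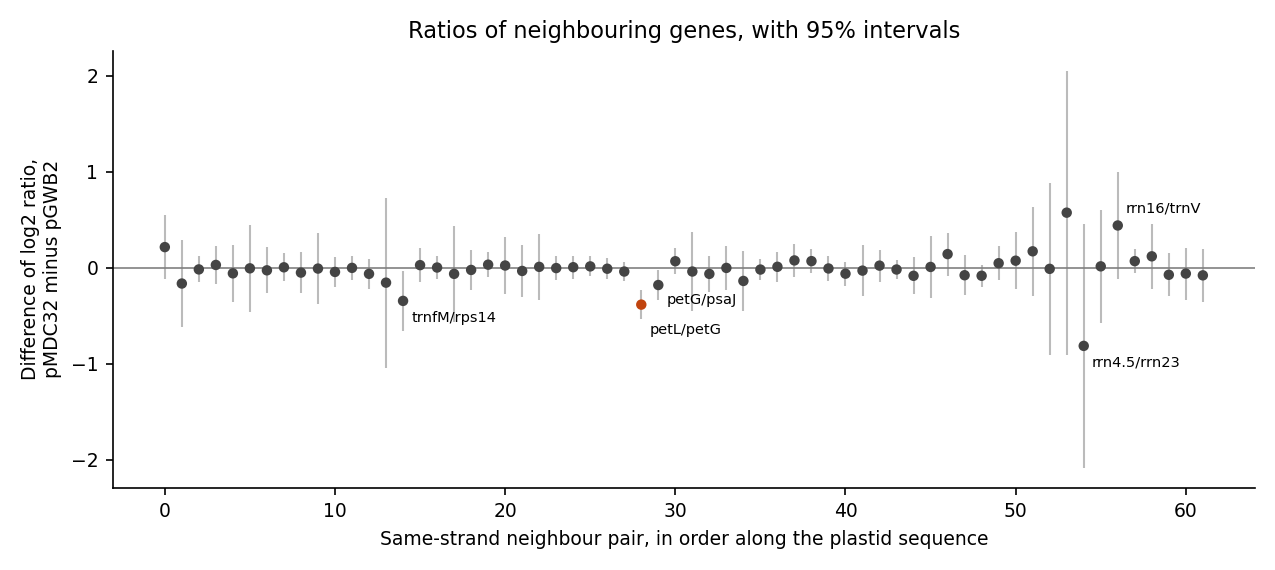
Difference of the log2 read ratio of each same-strand neighbour pair, pMDC32 minus pGWB2, with its 95% interval, in order along the plastid sequence (62 pairs). The petL to petG ratio (coloured) lies at -0.38 with an interval that leaves out 0, and the 2 widest intervals belong to pairs of rRNA genes.

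The rest of the plastid transcriptome differed little between the vectors. Among the 105 plastid rows 47 had a log2 fold change above 0 and 58 below it, and this split moved with the scaling, to 60 above and 45 below with the size factors of DESeq2, 66 and 39 with library totals and 37 and 68 with upper quartile scaling. With TMM factors the median size was 0.057, and 1 (rrn4.5) lay more than 1.5-fold from equality in its estimate. For 95 rows the interval at 95% stayed within 1.5-fold, and for 104 within 2-fold. The smallest adjusted p after petL was 0.995, and petL was the 1 row with an unadjusted p under 0.05. In 5 rows (4.76%) the groups did not overlap. Of these, 4 (3.81%), petL, psbT, psbB and ndhG, were lower with pMDC32, and 1 (0.952%), trnH, outside the rule for named genes and chosen after its values were seen, was higher.

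**Figure D5:**
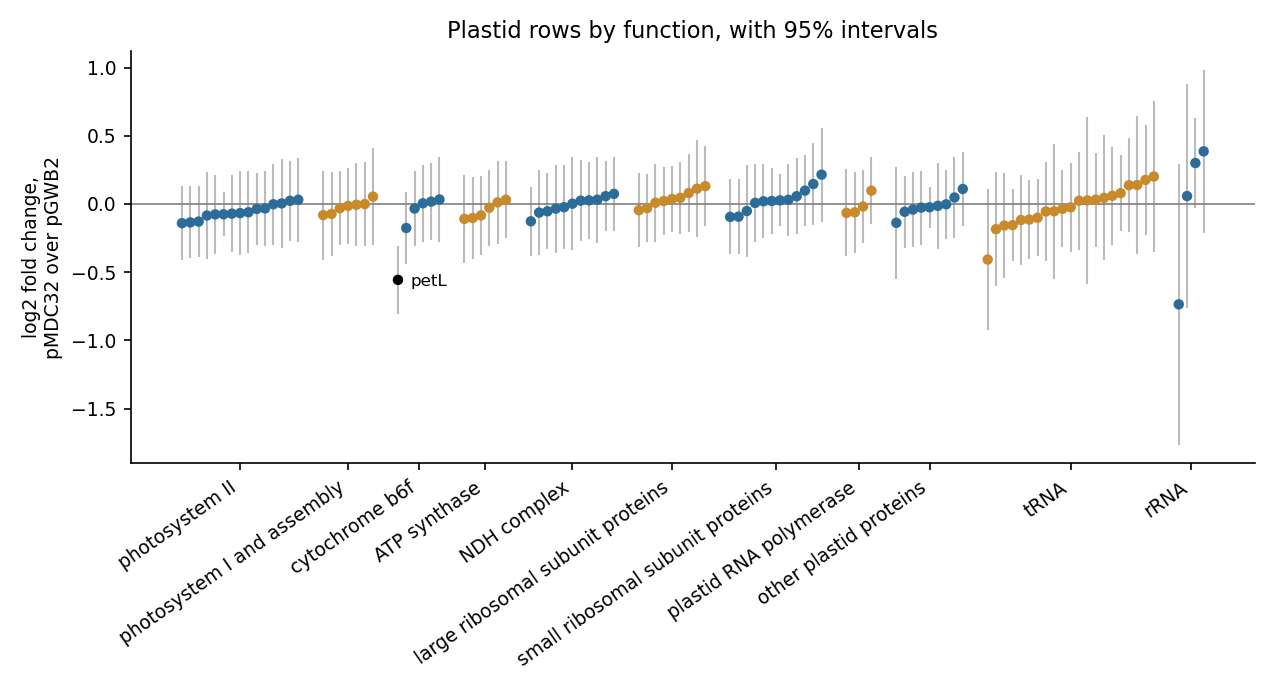
Log2 fold change, pMDC32 over pGWB2, of plastid rows by function, with 95% intervals; each point is a gene, ordered by value within its group. petL (black) is the 1 row past the adjusted threshold, and most other estimates lie close to 0.

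Photosystem II genes sat mostly just below 0. Of the 15 members 12 had a log2 fold change below 0 and 3 above it, the median was -0.067 against -0.015 for all plastid rows, and none passed. Under the other scalings 10 to 13 lay below 0. psbB, for the core antenna protein CP47, had 10929, 9922 and 9231 CPM with pMDC32 and 10976, 11112 and 10954 CPM with pGWB2, a log2 fold change of -0.14 (SE 0.12). Its cotranscribed neighbour psbT, for a small subunit, stood at -0.14 (SE 0.13), and psbN, on the other strand between psbT and psbH and needed for assembly, at -0.13 (SE 0.12). psbA had a log2 fold change of -0.076 (SE 0.076) and took 49.8%, 44.0% and 47.6% of counts in pMDC32 replicates 1 to 3, against 49.9%, 48.5% and 47.1% in pGWB2 replicates 1 to 3. Without pMDC32 replicate 2 its log2 fold change was 0.074.

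The other photosynthesis complexes had no member past the threshold, and the counts by sign given next moved with the scaling, to 5 of 7 photosystem I members above 0 with library totals and 7 of 11 NDH members below 0 with upper quartile scaling. Photosystem I and its assembly factors had 6 of 7 members below 0 with a median of -0.015, from psaA at -0.082 (SE 0.15) to psaC, for the iron-sulphur subunit, at 0.054 (SE 0.17). The ATP synthase had 4 of 6 below 0 with a median of -0.056, led by atpB of the catalytic core at -0.11 (SE 0.15) and atpI of the membrane part at -0.10 (SE 0.14). The NDH complex, which feeds electrons into cyclic flow, had 6 of 11 above 0 with a median of 0.002, from ndhG at -0.13 (SE 0.12) to ndhC at 0.074 (SE 0.13), with ndhB at -0.063 (SE 0.14). rbcL was at -0.025 (SE 0.071) with an interval of -0.18 to 0.13.

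Ribosomal protein genes leaned the other way, again with none past the threshold. Of the large subunit genes 7 of 9 lay above 0 with a median of 0.036, and of the small subunit genes 9 of 12 with a median of 0.024. Under the other scalings these counts were 6 to 8 of 9 and 8 to 9 of 12. The small subunit genes include rps12 at 0.026 (SE 0.088), with means of 105876 CPM with pMDC32 and 103953 with pGWB2. That row spans 70359 nt with 37 other rows inside it, so its counts are uncertain. rpl2 stood at 1117, 1559 and 957 CPM with pMDC32 and 1040, 1075 and 1247 CPM with pGWB2. Its groups overlap, with both the highest and the lowest library in pMDC32, and its log2 fold change was 0.11 (SE 0.16, 95% interval -0.24 to 0.47). Without pMDC32 replicate 2 it was -0.044. The neighbours of rpl2 and its cluster gave 0.0086 for rpl23 (SE 0.13), 0.15 for rps19 (SE 0.14) and 0.13 for rpl22 (SE 0.14). Of the 12 genes from rpl23 to rpoA 10 lay above 0, with a median of 0.033 and a range from rpl36 at -0.046 (SE 0.13) to rps19. rps16, an intron-containing gene outside that cluster, had the highest estimate of the small subunit genes at 0.21 (SE 0.16), and rps15 the lowest at -0.095 (SE 0.13).

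Genes for transcription and other functions stayed close to 0. rpoA, for the alpha subunit of the plastid RNA polymerase, was at 0.097 (SE 0.11), and rpoC1, for another subunit, at -0.066 (SE 0.15), with 3 of 4 polymerase genes below 0, and 2 of 4 with library totals. Of the 7 genes transcribed mainly by the nuclear-encoded polymerase, which are prominent in plastids that are not green, 6 lay below 0 with a median of -0.019, but 3 with library totals or the size factors of DESeq2. Among them clpP1, for a protease subunit, stood at 0.11 (SE 0.13) and accD, for a subunit of acetyl-CoA carboxylase, at -0.058 (SE 0.12). ccsA, needed to attach haem to c-type cytochromes, was at -0.14 (SE 0.19).

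Ribosomal RNA rows, left after ribosomal RNA had been depleted from the total RNA, had wide intervals, and those of rrn4.5 and rrn5 were the widest of the plastid rows. None of the 4 passed, 3 lay above 0, and the interval lay within 1.5-fold for 0 of 4. rrn16, of the small subunit, had 109, 231 and 166 CPM with pMDC32 and 72.9, 156 and 158 CPM with pGWB2, a log2 fold change of 0.39 (SE 0.28). It was higher with pMDC32 at each of 3 replicate numbers, as were 7 of the 105 plastid rows, counting rrn16 itself. With the labelled day as covariate rrn16 passed at 0.42 (SE 0.13, edgeR adjusted p = 0.0458). That fit shared 1 estimate of the spread across all rows (318 degrees of freedom). In the fit with no covariate the log2 fold change of rrn16 ran from 0.10 (without pGWB2 replicate 1) to 0.62 (without pMDC32 replicate 1), and was 0.16 without pMDC32 replicate 2. rrn23, of the large subunit, stood at 0.30 (SE 0.15) and rrn5 at 0.058 (SE 0.38). rrn4.5 had 1.84, 4.23 and 3.10 CPM with pMDC32 and 2.05, 3.49 and 9.66 CPM with pGWB2, and its log2 fold change of -0.74 (SE 0.48) was 0.14 without pGWB2 replicate 3. How much of these rows depletion left in each library was not tested.

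Transfer RNA rows spread on both sides of 0, with 10 of 21 above and 11 below, a median of -0.025 (0.017 with library totals) and none past the threshold. trnfM, the initiator, had 9.60, 12.3 and 11.1 CPM with pMDC32 and 10.1, 16.3 and 17.3 CPM with pGWB2, a log2 fold change of -0.41 (SE 0.24). trnL (-0.19, SE 0.19), trnN (-0.16, SE 0.18) and trnD (-0.16, SE 0.12) also lay below 0, and trnA (0.20, SE 0.26), trnQ (0.18, SE 0.19) and trnH (0.14, SE 0.16) above it. The trnA value was -0.092 without pGWB2 replicate 1.

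Shares of the counts were compared by class of RNA (psbA, other protein-coding, tRNA, rRNA and transgene) with the exact permutation test (two-sided, n = 3 each). Its smallest possible p is 0.1, so no class could have passed 0.05, and the shares are a description. The adjusted p of this test was 0.7 for each of the 5 classes. The psbA share differed by -1.37 percentage points, pMDC32 minus pGWB2 (exact p = 0.6), and by 0.191 points without pMDC32 replicate 2. The rRNA share was 0.0665% ± 0.0165 with pMDC32 and 0.0516% ± 0.0117 with pGWB2 (SD, n = 3 each, exact p = 0.3), and the tRNA share was 2.32% ± 0.363 with pMDC32 and 2.12% ± 0.354 with pGWB2 (exact p = 0.6). Most counts of the tRNA class lay in 2 long rows. These were trnK (2573 nt, mean 15223 CPM with pMDC32 and 14412 with pGWB2) and trnA (782 nt, 5005 and 4354). The trnK row contains the matK row on the same strand, so the tRNA share does not measure mature tRNA. With a library left out the tRNA difference ran from 0.0383 points (without pMDC32 replicate 2) to 0.403 points (without pGWB2 replicate 3), and the rRNA difference from 0.00685 points (without pMDC32 replicate 2) to 0.0233 points (without pMDC32 replicate 1).

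Libraries of the same vector mostly differed more among themselves than the vectors did, and replicate 1, labelled 2 dpi, stood apart with both. For replicate 1 the replicate number and the labelled day cannot be told apart. In 94 of 105 plastid rows the difference between the vectors was smaller than the larger of the within-vector SDs, on a log2 scale where the median SD was 0.15 with pMDC32 and 0.14 with pGWB2. A mean of 3 libraries varies less than a single library, so this count would be high with no vector effect and is a description. On the first principal component of the plastid rows, with 54.1% of the variance, the replicate 1 libraries lay at -1.50 (pMDC32) and -2.13 (pGWB2) and the other 4 between 0.24 and 1.76, whereas the vector means differed by 0.085. The vectors separated on the third component, with 12.5% of the variance, where the pMDC32 libraries lay at -0.57, -0.81 and -0.25 and the pGWB2 libraries at 0.75, -0.12 and 0.99. The deviation of replicate 1 from replicates 2 and 3 had the same sign with both vectors in 80 of 105 rows. It was -0.93 with pMDC32 and -1.06 with pGWB2 for trnR, -0.84 and -1.10 for rrn16, and -1.60 and -1.83 for the transgene, but 0.0068 and 0.074 for petL. Like trnH, trnR is outside the rule for named genes. The log2 SD was 0.97 with pMDC32 and 1.05 with pGWB2 for the transgene, 0.51 and 1.02 for rrn4.5, 0.54 and 0.67 for trnR, and 0.54 and 0.64 for rrn16, so these rows varied within both vectors.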

How the data were processed

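Per the labels' protocols, rRNA was removed from total leaf RNA and strand-marked libraries were built with dUTP. The authors deposited raw counts of reads per row, not normalized. Per the submitters' processing notes the tools were HISAT2 2.2.1, featureCounts 2.0.1, Trim Galore 0.6.10, DESeq2 1.42.0 and FastQC 0.12.1, with roles not stated. For the build, the strand setting and multiply mapped reads, no setting is given in the sources used here. CPM per kilobase use the library totals, and other CPM use TMM-scaled totals. Other values of each row, such as its length, are as deposited. The rps12 row spans 70359 nt with 37 other rows inside it, and 10 further rows overlap another on their strand, so their counts are uncertain. The class of other protein-coding rows holds the rps12 row.

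The vectors were compared in R 4.3.3 with edgeR 4.0.16 (quasi-likelihood test, TMM, filterByExpr, which all 106 rows passed, two-sided, Benjamini-Hochberg over all rows, threshold 0.05) on the 6 editor libraries. The SE of an edgeR log2 fold change is its absolute value over the square root of the quasi-likelihood F. The 95% intervals use that SE. Neighbour ratios were log2((count + 0.5)/(count + 0.5)) of the row nearer the sequence start over the next, compared with limma 3.58.1 over all pairs. The rps12 row was left out of the pairs. Since only plastid and transgene rows were counted, fold changes of plastid genes are relative mainly to other plastid genes, and a change of all of them together would not show. Alternatives were other scalings, DESeq2 1.42.0, limma-voom, left-out rows and libraries, the labelled day, a replicate block and all 9 libraries. The comparison, the members, the gene lists and the rule for named genes (the transgene, petL, the 20 smallest p, a fixed set around rpl2 and of main genes, and the extremes of each list, not all of which are printed) were chosen with earlier results of these data known, petL among them. The fits were run on simulated data with the same spread in all rows and no replicate or day effect, unlike these data. That check does not show how well a difference of the size of petL is found here. Whether replicates came from separate plants is stated only as biological replicates, and p-values measure the spread between these libraries. In the edgeR fit as reported, the spread of a row was drawn in part from the other rows (13.9 prior and residual degrees of freedom). With the labelled day or the replicate block in edgeR, the spread was pooled over all rows.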

Additional observations from a re-analysis of the deposited data

How the results depend on the processing

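The direction of the transgene and of petL held under every alternative run, and their calls did not. The count of plastid rows called by edgeR (adjusted p) was 1 as reported (petL), 0 with DESeq2's size factors in edgeR, upper quartile scaling, library totals, no psbA row, no rps12 row, replicates 2 and 3 alone or all 9 libraries, 2 with the labelled day as covariate (petL and rrn16), and 0 to 1 when a library was left out. In the settings that ended the petL call in that order its log2 fold change was -0.53, -0.58, -0.52, -0.51, -0.52, -0.53 and -0.55, and -0.60 to -0.43 with a library left out. The transgene passed without rRNA and tRNA rows (0.91), in replicates 2 and 3 alone (0.88) and with the labelled day (0.95), and ranged from 0.52 to 1.28 with a library left out, where it never passed. All 106 rows passed the filter on low counts, so the fit without it is the fit as reported. No cause of these changes was tested.

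The replicate numbers are shared by the vectors, but deviations of same-numbered libraries correlated at 0.711, 0.080 and 0.103 across plastid rows, so the numbers were not taken as pairs, and not every library correlated best with its own number. With a replicate block the transgene stood at 0.93 (adjusted p = 9.7e-09) and petL passed as before, 1 plastid row was called as without it, and 0 pairs, while rrn16 did not pass (adjusted p = 0.073). The edgeR fit with the block shared 1 estimate of the spread across all rows (212 degrees of freedom), so its small p-values do not rest on the spread of the row alone. Without a pair in turn (added after seeing the data) the block gave 0.86, 0.88 and 1.14 for the transgene, which passed each time. For petL the block gave -0.54 and -0.42 without replicates 1 and 2, where petL did not pass. Without replicate 3 petL stood at -0.64 and passed (edgeR adjusted p = 0.0116).

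The count of neighbour pairs called was 1 (petL to petG) with protein-coding pairs alone or with all 9 libraries, and 0 in the other 12 settings that give a test, each left-out library included. Shares of counts of other protein-coding rows differed by 0.826 points, -0.54 on TMM-scaled totals and -0.368 to 1.75 with a library left out, and the psbA share by -2.70 to 0.191 points.

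Signs of small differences turned. With DESeq2 or its size factors in edgeR psaJ was at 0.029 and rbcL at 0.0068, with library totals 0.037 and 0.015, without psbA 0.041 and 0.017, and without rps12 0.037 and 0.016. psaJ was also at 0.0023 with all 9 libraries, 0.0026 with the labelled day, 0.0010 by limma-voom, 0.00088 with the replicate block and 0.0011 without rRNA and tRNA rows. In replicates 2 and 3 alone psaJ was at 0.073, rpl33 at -0.0038, rrn5 at -0.097, trnR at -0.0036, rps15 at 0.0054, rpl23 at -0.018 and accD at 0.057, and with upper quartile scaling trnR was at -0.0072 and rpl23 at -0.011. Leaving out a library in turn gave log2 fold changes of -0.024 to 0.18 for ndhC, -0.27 to 0.11 for ccsA, -0.094 to 0.13 for psaJ, -0.25 to 0.38 for trnR, -0.16 to 0.074 for psbA, -0.16 to 0.071 for ndhB, -0.044 to 0.31 for rpl2, -0.056 to 0.11 for rpl23, -0.046 to 0.047 for rbcL, -0.19 to 0.017 for atpI, -0.10 to 0.25 for rrn5, -0.062 to 0.069 for rpl36, -0.21 to 0.12 for psaA, -0.19 to 0.10 for psaB, -0.077 to 0.21 for psaC, -0.17 to 0.080 for rpoC1, -0.24 to 0.058 for atpB, -0.00036 to 0.11 for rpl33, -0.092 to 0.55 for trnA, -0.12 to 0.027 for accD, -1.11 to 0.14 for rrn4.5 and -0.18 to 0.032 for the ratio of rpl23 to rpl2.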
